A study of Homo sapiens with 6 samples.

Results

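Elastic fibres and the lysyl oxidases that cross-link them were examined through 10 genes: ELN, LOX, LOXL1, LOXL2, LOXL3, LOXL4, FBN1, FBN2, FBLN1 and FBLN5. The genes were matched by symbol, and the list was chosen with earlier results of these data known. Each symbol has 1 row among the 58219 genes of the table, and all 10 were among the 13315 genes tested. The cells were IMR90, an established normal diploid fibroblast line of human lung origin, and carried ER-RAS, which the series text names as ER-RASG12V. This is an oncogenic RAS protein joined to a hormone-binding part of the oestrogen receptor, switched on by 4-hydroxytamoxifen (4OHT). Both groups carried the construct and received 100 nM 4OHT, one for 30 h (3 libraries, replicates A, B and C, called uncommitted controls in the labels) and one for 72 h (3 libraries, A, B and C, called committed). The titles give the shorter time as 1.5 days. No group without 4OHT was analysed here, and commitment and time under RAS signalling cannot be told apart.

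An elastic fibre is a core of cross-linked elastin laid on a scaffold of fibrillin microfibrils. Fibulins such as fibulin-5 bring tropoelastin, its soluble precursor, to the microfibril. Lysyl oxidases are secreted copper enzymes that oxidise lysines of elastin and collagen, after which the chains join covalently. In the lung these fibres give recoil, and fibroblasts are among the cells that make them.

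Transcripts of 9 of the 10 genes fell from 30 h to 72 h by limma at a Benjamini-Hochberg adjusted p under 0.05, 0 rose, and LOXL4 did not pass. All 10 log2 fold changes were negative, with a median of -1.46 against 0.01 over all genes tested. A fall was called for 25.0% of all genes tested and a rise for 23.6%. ELN passed the filter on low values only through its libraries of 30 h, so its call was partly fixed by the filter. Without ELN, 8 of the other 9 genes fell, with a median log2 fold change of -1.35. At least 2-fold falls were seen for ELN, LOXL3, LOX, FBLN5, FBLN1 and FBN2, and 6.70% of all genes tested had such a called fall. In these 9 genes all 3 libraries of 72 h lay below all 3 of 30 h, as they did for 29.9% of the genes tested. The number that rose was also 0 at an unadjusted p under 0.05, by edgeR and by DESeq2. Each of these tools called 9 of the 10 lower, against 25.1% of the genes tested by edgeR and 17.4% by DESeq2, and so did limma with the replicate letter as a block, against 25.9%. In bulk RNA a lower count from fewer cells of a kind cannot be told apart from less RNA per cell.

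**Figure D1:**
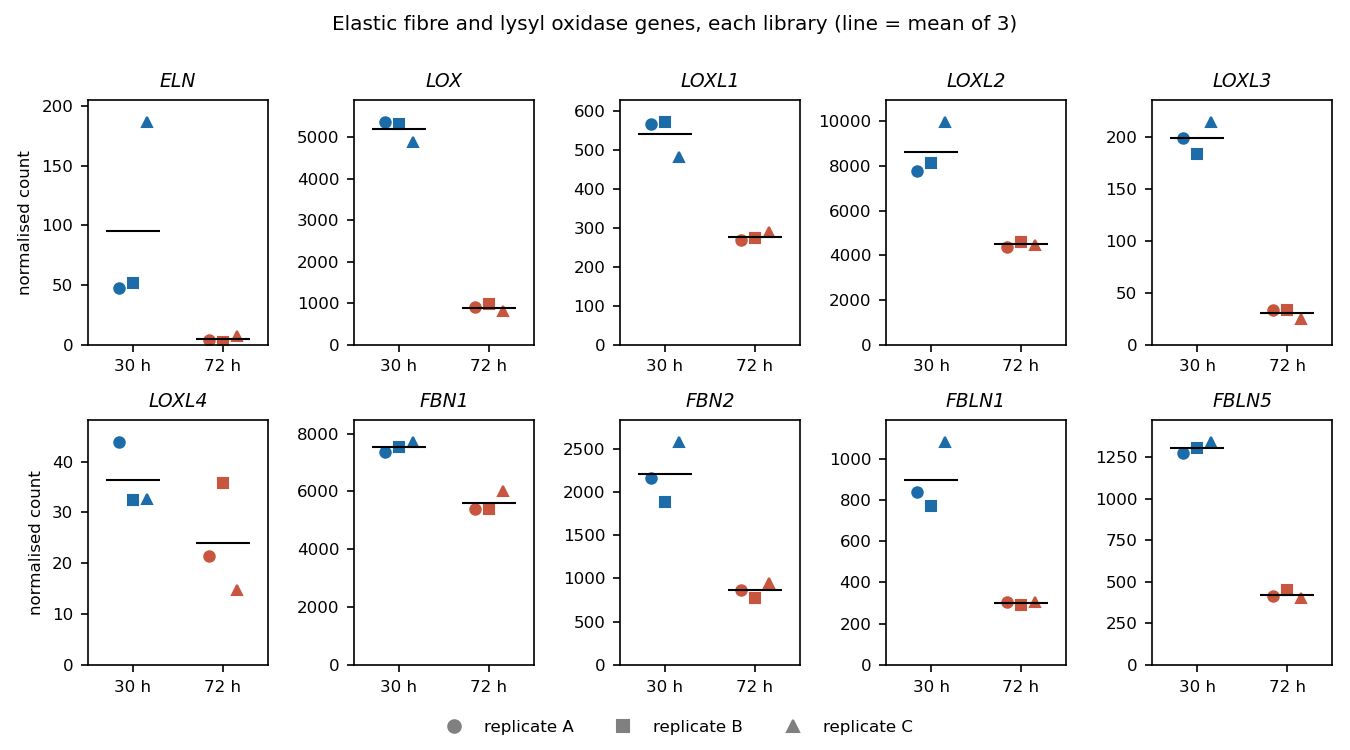
Normalised count (vertical axis, from 0, scaled per gene) of each of the 10 genes in each library of 30 h (blue) and 72 h (red); symbols mark replicates A, B and C and the line is the mean of 3. The groups overlap only for LOXL4, and 30 h replicate C stands apart for ELN at 187 against 47.8 and 51.8.

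The libraries held 13221152 to 15703544 reads assigned to genes. The letter C libraries of both times were separated from A and B by the second principal component (6.99% of the variance). Within the 30 h group, replicate C was the highest library for 7 of the 10 genes and the lowest for LOX and LOXL1, while it was the highest for 38.0% of all genes tested. At 72 h, replicate C was the highest for 4 genes and the lowest for 4. The 10 listed fibroblast markers were all detected, but their summed level was 173335 to 183559 normalised counts at 30 h and 60929 to 70057 at 72 h. VIM alone was 82705 to 104828 of that sum at 30 h and 37330 to 43676 at 72 h. Of the fibroblast markers 7 of the 10 fell, where 25.0% of all genes tested were called lower. Among those that fell are COL1A1, COL1A2 and COL3A1, which are counted again with the collagen chains below. Of 5 immune markers 0 reached the filter, CD3E had no read, and the sums were 8.13 to 15.8 at 30 h and 10.2 to 15.7 at 72 h. The epithelial list (KRT5 without a read) summed to 723 to 822 at 30 h and 570.2 to 681 at 72 h, mostly KRT18. The endothelial list (CDH5 without a read) summed to 668 to 929 and 419 to 482, mostly TEK. The smooth muscle list summed to 3081 to 3912 and 3391 to 3786, and the mesothelial list to 0.975 to 5.08 and 16.8 to 26.6. The part of these marker levels in the results below was not tested.

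Elastin, the rubber-like core protein, is encoded by ELN (ENSG00000049540.16, GRCh38 chromosome 7, 74027789 to 74069907, plus strand). Its normalised counts were 47.8, 51.8 and 187 in replicates A, B and C of 30 h and 4.09, 2.62 and 7.34 at 72 h. The 3 libraries of 72 h were all far below the lowest of 30 h, and replicate C was the highest library in both groups. The log2 fold change was -3.87 ± 0.56 (SE, n = 3 per group), adjusted p = 0.00104 by limma, and 0.0676% of the genes tested had a lower one. Because ELN passed the filter only through 30 h, this p and this rank are partly fixed by the filter. The size of the fold is loose, because the 72 h libraries held 4, 3 and 7 reads. It was 14.7-fold in the fit, 9.48-fold without 30 h replicate C, 8.76-fold when 5 was added in place of 1 before taking logs, and 20.3-fold by edgeR. Per kb of exon, ELN had 14.6 ± 12.1 normalised counts at 30 h (mean ± SD, n = 3), above 20.7% of the genes tested, and 0.716 ± 0.37 at 72 h, above 0.339%. Its place at 72 h is also partly fixed by the filter, which left out genes low at both times.

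LOX, the founding lysyl oxidase and the one best known for cross-linking elastin and fibrillar collagen, lies on the minus strand of chromosome 5 (ENSG00000113083.13, 122063195 to 122078360). It had 5377, 5329 and 4882 normalised counts at 30 h and 899, 973 and 809 at 72 h. The libraries were tight within each group and far apart between them. The log2 fold change was -2.54 ± 0.07 (SE), adjusted p = 3.28e-08 by limma, a 5.82-fold fall. Over the alternative settings it ranged from -2.60 to -2.47. Of the genes tested, 0.706% had a lower log2 fold change. LOX stood above 96.1% of the genes tested per kb of exon at 30 h and above 72.8% at 72 h.

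LOX is a known target of hypoxia-inducible factors, and the stretch before its start is shown for that reason. The 250 bases upstream of the first start that RefSeq lists for LOX (GRCh38.p14, 3 starts listed) hold 4 matches to ACGTG, the core of the hypoxia response element, counted on both strands; the 149 bases outside annotated exons hold 2 of them, in capitals, at chr5:122078361-122078509, minus strand.
LOX: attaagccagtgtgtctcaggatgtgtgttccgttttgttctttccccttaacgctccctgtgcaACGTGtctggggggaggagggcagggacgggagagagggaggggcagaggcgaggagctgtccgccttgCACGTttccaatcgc
At least 1 match was present in 18.5% and at least 4 in 0.669% of the 35116 promoters in the RefSeq table. A palindromic CACGTG counts as 2 matches. The counts per gene do not show which start was used. HIF1A, a subunit of such a factor, rose from 9556 ± 1113 to 14786 ± 904 normalised counts (SD, n = 3; log2 fold change 0.63, adjusted p = 0.000257 by limma). EPAS1, the gene of another such subunit, did not pass (log2 fold change 0.21, adjusted p = 0.168 by limma). HIF1A and EPAS1 lie outside the rule for named genes and were named after their values were seen. A link of either gene to the fall of LOX was not tested.

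LOXL3, a paralogue with roles in cartilage and in fibronectin-rich matrix, lies on chromosome 2 (ENSG00000115318.11, 74532414 to 74555690, minus strand). It had 199.8, 184 and 215 normalised counts at 30 h and 33.7, 33.1 and 25.2 at 72 h. It fell 6.37-fold from a far lower level than LOX, log2 fold change -2.67 ± 0.16 (SE), adjusted p = 1.68e-06 by limma. Exons of HTRA2 and DOK1 on the opposite strand cover 14.3% and 4.95% of its exonic length. HTRA2 had 297 to 342 normalised counts at 30 h and 280.1 to 294 at 72 h, and DOK1 had 159, 177 and 137 at 30 h and 84.8, 116 and 114 at 72 h. Whether the authors counted by strand is unknown here, so a part of the LOXL3 reads is uncertain.

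LOXL1, which cross-links elastin on microfibrils together with fibulin-5, lies on chromosome 15 (ENSG00000129038.15, 73925989 to 73952137, plus strand). Its normalised counts were 565, 572 and 482 at 30 h and 269, 273 and 288 at 72 h. It fell 1.94-fold (log2 fold change -0.96 ± 0.09 SE, adjusted p = 2.23e-05 by limma). The antisense gene LOXL1-AS1 covers 9.21% of its exonic length and went from 124, 109 and 78.0 normalised counts to 54.2, 51.4 and 54.5, and with strand use unknown here, how reads of that stretch were assigned is uncertain.

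LOXL2, which acts on collagen IV of basement membranes and is also found in the nucleus, lies on chromosome 8 (ENSG00000134013.15, 23297189 to 23425328, minus strand). It had 7771, 8118 and 9979 normalised counts at 30 h and 4379.8, 4614 and 4467 at 72 h, without overlap. It fell 1.91-fold (log2 fold change -0.93 ± 0.09 SE, adjusted p = 3.83e-05 by limma). LOXL2 was the most abundant of the 10 genes per kb of exon at both times, at 1511 ± 208 normalised counts at 30 h and 786 ± 20.8 at 72 h (mean ± SD, n = 3). At 72 h it still stood above 95.6% of the genes tested.

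LOXL4, a paralogue with scavenger receptor domains like LOXL2 and LOXL3, lies on chromosome 10 (ENSG00000138131.3, 98247690 to 98268250, minus strand). It had 43.9, 32.5 and 32.7 normalised counts at 30 h and 21.5, 35.7 and 14.7 at 72 h. Replicate B of 72 h lay above 2 of the 3 libraries of 30 h, and the groups overlapped. The log2 fold change was -0.66 ± 0.31 (SE), adjusted p = 0.106 by limma. Without 72 h replicate B it was -0.98 with adjusted p = 0.0197 and passed, so 1 library decides this call.

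The 5 lysyl oxidases summed to 2652 ± 147 normalised counts per kb of exon at 30 h and 1037 ± 34.1 at 72 h (mean ± SD, n = 3), a ratio of 2.56. LOX made up 38.1%, 37.1% and 31.2% of that sum at 30 h and 15.9%, 16.3% and 14.3% at 72 h. LOXL2 made up 53.5%, 54.9% and 62.0% at 30 h and 75.5%, 75.1% and 76.9% at 72 h. Both shares were apart in all libraries, with LOX lower and LOXL2 higher at 72 h. LOXL1 went from 5.63% ± 0.802 to 7.34% ± 0.416 and LOXL3 from 1.73% ± 0.0893 to 0.677% ± 0.0995. These shares rest on exonic lengths from GENCODE 29 and describe these libraries, with no test.

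**Figure D2:**
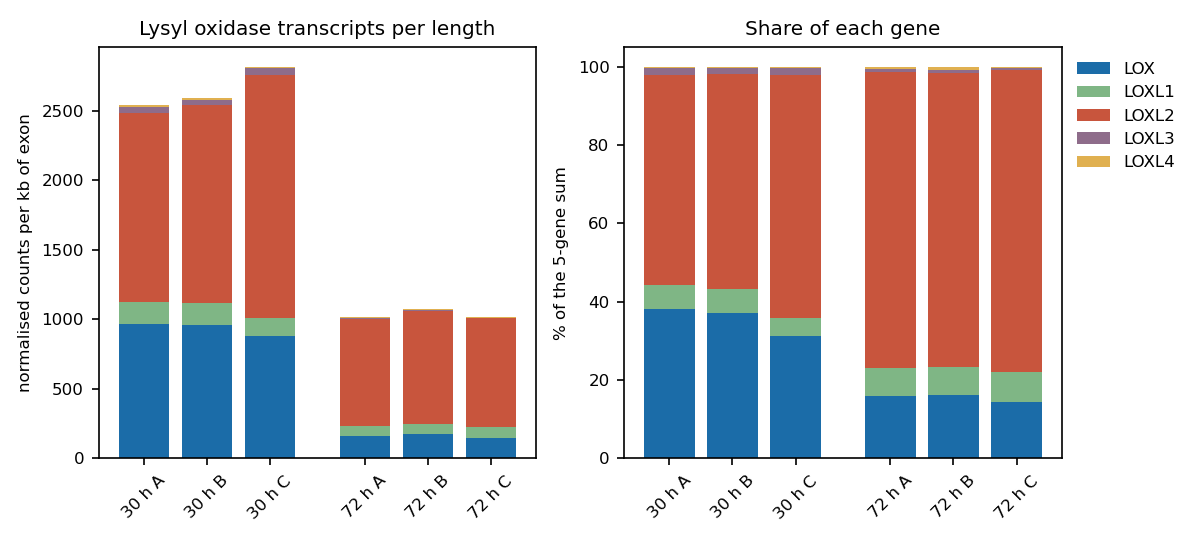
Left, normalised counts per kb of exon of the 5 lysyl oxidase genes stacked for each library; right, the same as percent of their sum. LOXL2 is the larger part in each library, and LOX takes 31.2% to 38.1% of the sum at 30 h and 14.3% to 16.3% at 72 h.

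Ratios of paralogues within a library put a number on unequal falls. The log2 ratio of LOX to LOXL2 was -0.53, -0.61 and -1.03 at 30 h and -2.28, -2.24 and -2.46 at 72 h, a change of -1.61. The log2 ratio of LOX to LOXL1 changed by -1.58 and that of LOX to LOXL4 by -1.88, also with no overlap between groups. The log2 ratio of LOX to LOXL3 was 4.70 ± 0.18 at 30 h and 4.83 ± 0.13 at 72 h (SD, n = 3), and the groups overlapped. For the first 3 ratios the two-sided exact permutation p was 0.1, the smallest that 3 against 3 libraries allow, and 0.15 after Benjamini-Hochberg adjustment over 6 pairs. For LOX to LOXL3 the exact p was 0.5. These 6 pairs were chosen after the values were seen.

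Fibrillins form the microfibril scaffold, FBN1 being the main one of adult tissue and FBN2 the one prominent in development. FBN1 (ENSG00000166147.13, chromosome 15, 48408306 to 48645849, minus strand) had 7366, 7548 and 7707 normalised counts at 30 h and 5397, 5396 and 6017 at 72 h. Its fall was the smallest of the 9 called in the group: 1.35-fold, log2 fold change -0.43 ± 0.06 (SE), adjusted p = 0.000267 by limma. Of the genes tested, 19.0% had a lower log2 fold change. It remained above 87.9% of the genes tested per kb of exon at 72 h, against 91.1% at 30 h.

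FBN2 (ENSG00000138829.11, chromosome 5, 128257909 to 128659185, minus strand) had 2167, 1889 and 2578 normalised counts at 30 h and 869.6, 774 and 951 at 72 h. It fell 2.54-fold (log2 fold change -1.35 ± 0.12 SE, adjusted p = 9.18e-05 by limma). FBN2 held 26.2% ± 2.80 of the summed fibrillin level per kb at 30 h and 15.8% ± 0.819 at 72 h (mean ± SD, n = 3). The log2 ratio of FBN2 to FBN1 was -1.76, -2.00 and -1.58 at 30 h and -2.63, -2.80 and -2.66 at 72 h, lower in every library of 72 h. The two-sided exact permutation p was 0.1, the smallest possible with 3 against 3 libraries, and 0.15 after adjustment over the 6 pairs.

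The promoters of the fibrillin pair and of LOXL3 are shown as a description and were picked after the values were seen. In FBN2 the capitals mark GGGCGG, the GC box bound by Sp1, on either strand, and in FBN1 and LOXL3 they mark GGAATG, the core bound by TEAD factors. FBN2 is chr5:128538246-128538495, FBN1 is chr15:48644971-48645220 and LOXL3 is chr2:74553962-74554085, all on the minus strand of GRCh38.p14, before the first start that RefSeq lists and outside annotated exons. All 3 stretches lie inside the gene spans given above, so the deposited annotation also has a start upstream of each.
FBN2: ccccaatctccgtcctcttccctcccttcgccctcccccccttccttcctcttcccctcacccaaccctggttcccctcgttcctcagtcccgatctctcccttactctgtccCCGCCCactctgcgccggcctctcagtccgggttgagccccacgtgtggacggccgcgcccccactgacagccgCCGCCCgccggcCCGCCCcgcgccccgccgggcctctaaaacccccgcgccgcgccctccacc
FBN1: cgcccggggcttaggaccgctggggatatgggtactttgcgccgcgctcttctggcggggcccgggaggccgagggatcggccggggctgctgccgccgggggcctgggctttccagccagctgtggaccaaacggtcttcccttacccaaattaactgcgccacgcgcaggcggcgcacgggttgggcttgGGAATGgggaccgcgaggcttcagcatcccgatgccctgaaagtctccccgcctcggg
LOXL3: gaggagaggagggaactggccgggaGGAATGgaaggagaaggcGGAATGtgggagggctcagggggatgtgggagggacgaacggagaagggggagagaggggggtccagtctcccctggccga
FBN2 held 3 GC boxes and FBN1 0, and at least 3 were present in 13.9% of all 250-base promoters of the table and at least 1 in 42.6%. LOXL4, which did not pass, held 6 GC boxes, FBLN5 held 3, and LOX and FBLN1 held 1 each. GGAATG had 2 matches in LOXL3 and 1 in FBN1. At least 2 were present in 0.94% of promoters and at least 1 in 11.9%. Of the 10 genes, 8 were matched in the table, and 5 of these held a GC box, 3 held CAGAC (the SMAD core, in 38.0% of all promoters), 2 held ACGTG and 2 held GGAATG. The AP-1 motif TGANTCA and the C/EBP motif TTGCNNAA, present in 6.57% and 9.05% of all promoters, had no match in the 8. All motifs were searched on both strands. A match describes letters in this window only, and a relation of motifs to the falls was not tested.

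Fibulins bridge elastin and microfibrils, and fibulin-5 is needed for elastic fibre assembly in mice. FBLN5 (ENSG00000140092.14, chromosome 14, 91869412 to 91947987, minus strand) had 1273, 1304 and 1340.4 normalised counts at 30 h and 417, 449 and 402 at 72 h. It fell 3.09-fold with little spread in either group (log2 fold change -1.63 ± 0.06 SE, adjusted p = 1.75e-07 by limma). FBLN1, which binds elastin and fibronectin (ENSG00000077942.18, chromosome 22, 45502238 to 45601135, plus strand), had 838, 772 and 1081 at 30 h and 305, 289 and 303 at 72 h. It fell 2.96-fold (log2 fold change -1.57 ± 0.11 SE, adjusted p = 8.8e-06 by limma). The log2 ratio of FBLN5 to FBLN1 was 0.56 ± 0.23 at 30 h and 0.50 ± 0.12 at 72 h (SD, n = 3), with overlapping groups and a two-sided exact permutation p of 0.8.

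**Figure D3:**
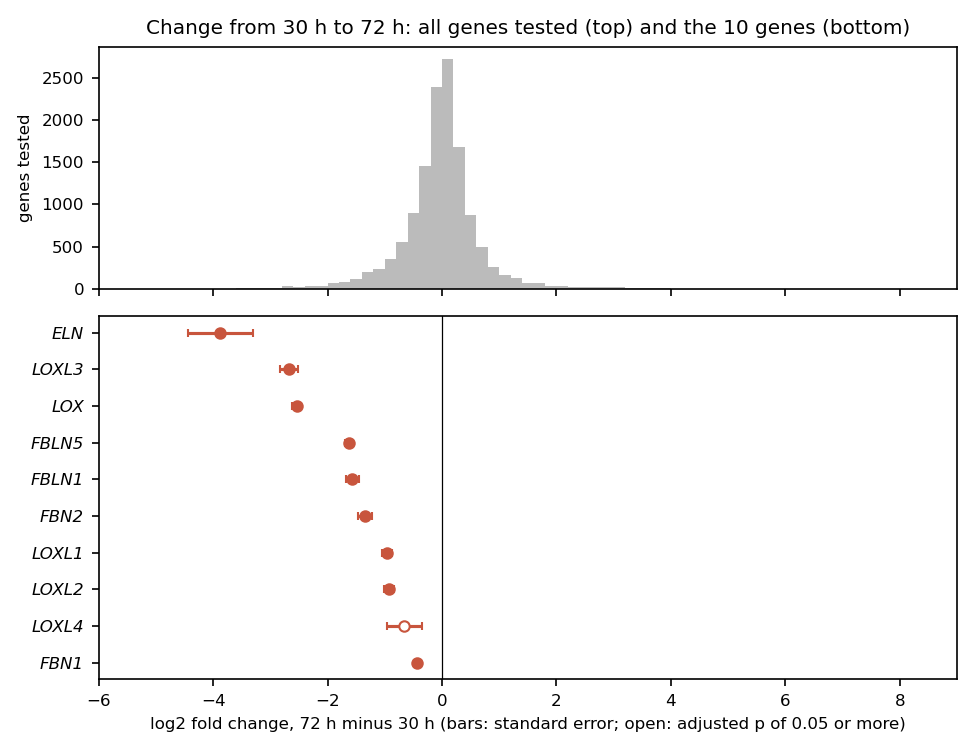
Top, number of genes tested (vertical axis) by log2 fold change from 30 h to 72 h (horizontal axis); bottom, the same value for the 10 genes with its standard error, open where the adjusted p was 0.05 or more. All 10 lie below 0, from -3.87 for ELN to -0.43 for FBN1, and LOXL4 is the open point.

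Set in order of level per kb of exon, the 10 genes changed places between the times. At 30 h the order of mean levels was LOXL2 (1511), LOX (937), FBN1 (469.6), FBLN5 (263), FBN2 (168), LOXL1 (148), FBLN1 (123), LOXL3 (45.8), ELN (14.6) and LOXL4 (9.95). The libraries of FBN2 and LOXL1, of LOXL1 and FBLN1, and of ELN and LOXL4 overlapped, so these neighbours did not differ beyond their spread. At 72 h the order was LOXL2 (786), FBN1 (349), LOX (161), FBLN5 (85.0), LOXL1 (76.1), FBN2 (65.6), FBLN1 (41.0), LOXL3 (7.03), LOXL4 (6.56) and ELN (0.716). LOX went from above FBN1 to below it in every library, and LOXL3 and LOXL4 overlapped.

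Relative to the mean of its own group on the log2 scale, 30 h replicate C was higher by 1.26 for ELN, 0.28 for FBLN1, 0.23 for FBN2 and 0.22 for LOXL2, and differed by -0.16 for LOXL1 and -0.09 for LOX. At 72 h the same letter was higher by 0.64 for ELN and 0.14 for FBN2 and differed by -0.58 for LOXL4, -0.26 for LOXL3 and -0.14 for LOX. With both libraries of letter C left out the same 9 genes passed, with log2 fold changes of -3.56 for ELN and -2.52 for LOX, where 27.2% of all genes tested were called lower. The labels do not say what the letters share.

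**Figure D4:**
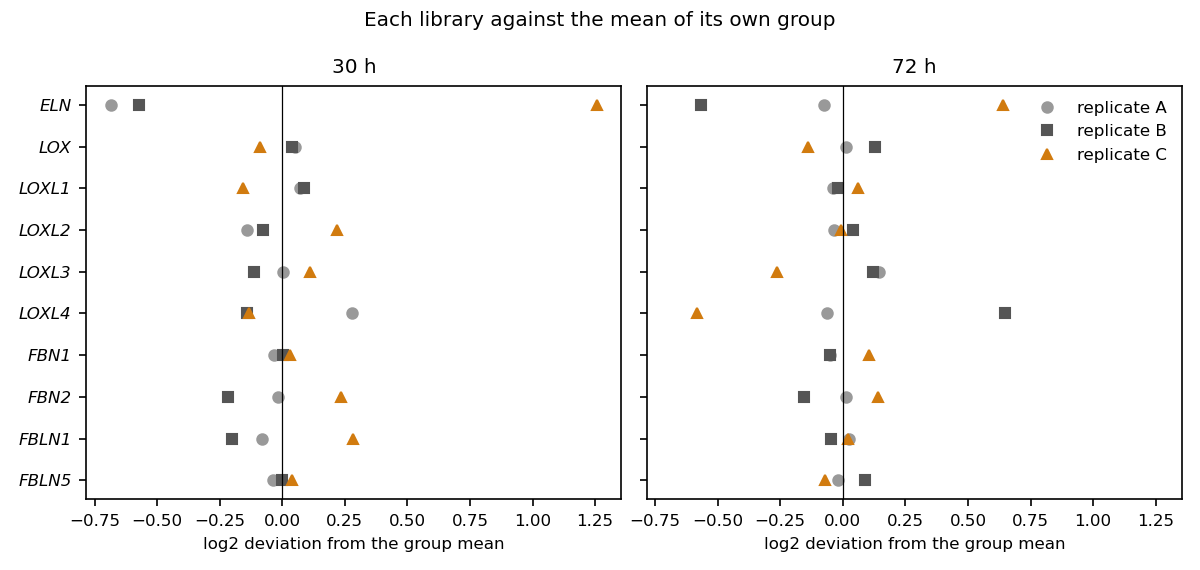
Difference of each library from the mean of its own group, on the log2(normalised count + 1) scale (horizontal axis), for the 10 genes at 30 h and 72 h; symbols and colours mark replicates A, B and C. Replicate C of 30 h lies 1.26 above the mean for ELN, and most other points lie close to 0.

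Among the other genes of microfibrils and elastic fibres, 9 of the 17 tested were called lower, 1 higher and 7 neither, with a median log2 fold change of -0.57, and 9 of the 26 listed were not tested. These shares are 52.9% lower and 5.88% higher, against 25.0% and 23.6% of all genes tested. EFEMP1, the gene of fibulin-3, fell most, with 855, 793 and 947 normalised counts at 30 h and 134, 133 and 112 at 72 h (log2 fold change -2.77). HMCN1, a very large fibulin, fell by 1.13 and ADAMTS6, a protease acting on microfibrils, fell by 1.08 on the log2 scale. MFAP4, a microfibril-associated glycoprotein, had 157, 114 and 339.6 at 30 h and 77.7, 84.6 and 68.2 at 72 h, again highest in 30 h replicate C. Its adjusted p of 0.0424 by limma rose to 0.0722 without 30 h replicate A, and to 0.0934, 0.0811 and 0.134 without 72 h replicates A, B and C, so the call was lost in each case, as it was with no filter (0.107) and with the replicate letter as a block (0.0854). LTBP3, which stores latent TGF-beta on microfibrils, rose by 0.45 on the log2 scale.

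Genes that process lysyl oxidases or supply their copper were split. Among 11 tested, 5 were called lower, 1 called higher and 5 neither, with a median log2 fold change of -0.14, and 3 of the 14 listed were not tested. Called lower were 45.5% and called higher 9.09%, against 25.0% and 23.6% of all genes tested. POSTN, the gene of periostin, a scaffold for the protease that activates LOX, had 4077, 2688 and 6026 normalised counts at 30 h and 1697, 1422 and 1781 at 72 h (log2 fold change -1.31, adjusted p = 0.0183 by limma). Its call was lost without 72 h replicate B (adjusted p = 0.0516) or 72 h replicate C (0.0716), without both libraries of letter C (0.101) and with no filter (0.0731). ADAMTS2, a procollagen protease that also cleaves LOX, fell by 1.31 on the log2 scale. BMP1, the gene of the protease that activates LOX, fell by 0.61 on that scale (adjusted p = 0.00167 by limma). PCOLCE, an enhancer of procollagen processing, fell by 0.83 and FN1, the gene of fibronectin, fell by 0.76. Without 30 h replicate C 2 genes of the list were called higher. The call of PCOLCE was lost without 30 h replicate C (adjusted p = 0.061, from 0.0127 by limma) and with the replicate letter as a block (0.051). SLC31A1, the main copper importer of the cell surface, rose from 1988 ± 244 to 2811 ± 303 (log2 fold change 0.50), and the copper pump ATP7A stood at 0.18 on that scale (adjusted p = 0.275 by limma). Without 30 h replicate C ATP7A passed, at 0.33 (adjusted p = 0.00705 by limma). ATP7A and BMP1 were named after their values were seen.

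Of 11 genes needed for elastin secretion or mutated in cutis laxa, a disease of slack skin, 4 (36.4%) were called lower, 3 (27.3%) higher and 4 neither, with a median log2 fold change of 0.04. These counts are near the shares of all genes tested, 25.0% lower and 23.6% higher. RIN2, an endocytic regulator, had 1132, 1152 and 1141 normalised counts at 30 h and 291, 323 and 261 at 72 h, a fall of 1.97 on the log2 scale. PYCR1, an enzyme of proline synthesis, fell by 0.65 and ATP6V0A2, a proton pump subunit, rose by 0.63. SLC2A10 and GORAB rose by 0.39 and 0.27 with adjusted p = 0.0426 and 0.041 by limma. SLC2A10 lost its call when a single library was left out: adjusted p was 0.122 without 30 h replicate A, 0.124 without 30 h replicate B, 0.0711 without 72 h replicate A and 0.0857 without 72 h replicate C. GORAB lost its call without 30 h replicate A (0.0993), 30 h replicate C (0.112), 72 h replicate A (0.142), 72 h replicate B (0.0602) or 72 h replicate C (0.0547). GORAB also did not pass by DESeq2 (adjusted p = 0.126), with no filter (0.0626) or without both libraries of letter C (0.0786), and its adjusted p in the authors' deposited table was 0.13. Without 30 h replicate A or 72 h replicate A only 1 gene of the list was called higher.

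Enzymes that degrade elastin and their inhibitors were divided. Among 12 tested, 6 were called higher, 3 called lower and 3 neither, with a median log2 fold change of 0.27, and 6 of the 18 listed were not tested. PI3 and SERPINA1 passed the filter only through 72 h, so their calls were partly fixed by the filter. Without them 4 of 10 were called higher and 3 lower, with a median of 0.01. Of all genes tested 23.6% were called higher and 25.0% lower, and the number called lower in the list was near that share. CTSS, a cathepsin able to cut elastin, had 194, 248 and 235 normalised counts at 30 h and 2572, 2739.6 and 2591 at 72 h (log2 fold change 3.55). MMP12, the macrophage elastase, had 19.5, 31.5 and 22.1 at 30 h and 202, 229 and 199 at 72 h (log2 fold change 3.08). The 3 genes called neither were also enzymes: MMP2, CTSL and CTSK. Their mean normalised counts went from 8347 to 7726, from 2285 to 2119 and from 521 to 569, with adjusted p = 0.490, 0.219 and 0.783 by limma. Of the elastase inhibitors, PI3, the gene of elafin, had 0 reads in each library of 30 h and 78.7, 75.0 and 151 normalised counts at 72 h. SERPINA1, the gene of alpha-1 antitrypsin, had 1.95, 1.02 and 3.16 at 30 h and 61.3, 57.5 and 174 at 72 h. The tissue inhibitors of metalloproteinases were split. TIMP2 and TIMP3 fell, at -1.12 and -1.67 on the log2 scale. TIMP1 had 12896, 12564 and 15937 normalised counts at 30 h and 36332, 36434 and 56448 at 72 h, and rose by 1.62 (adjusted p = 0.00121 by limma). CST3, the gene of the cathepsin inhibitor cystatin C, rose by 0.44. MMP2, CTSL, CTSK, TIMP1 and CST3 lie outside the rule for named genes and were named after their values were seen. MMP14, a membrane-bound metalloproteinase, fell by 0.28.

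Of the 9 collagen chains tested, the other substrates of these enzymes, 7 were called lower, 0 higher and 2 neither, with a median log2 fold change of -1.74, and COL2A1 was not tested. The share called lower was 77.8%, against 25.0% of all genes tested, of which 23.6% were called higher. By limma at an unadjusted p under 0.05, by edgeR and by DESeq2 the number that rose was also 0. COL5A2, a chain of collagen V, had 9314, 8656 and 10821 normalised counts at 30 h and 1536, 1697 and 1274 at 72 h (log2 fold change -2.68). COL5A3, COL1A2 and COL1A1 also fell, at -2.24, -2.02 and -1.90. COL4A1 and COL4A2, the basement membrane chains on which LOXL2 acts, did not pass: -0.40 for COL4A1 (adjusted p = 0.235 by limma) and -0.34 for COL4A2 (adjusted p = 0.188 by limma) on the log2 scale. COL4A2 passed by DESeq2 (adjusted p = 0.0446). Both were singled out with their values known.

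Among 28 known regulators of elastin and LOX transcription that were tested, 9 (32.1%) were called higher, 7 (25.0%) lower and 12 neither, with a median log2 fold change of 0.08. These shares are near the 23.6% and 25.0% of all genes tested. Interleukin 1 and fibroblast growth factor 2 are known to lower elastin transcription in lung fibroblasts. IL1B, which encodes the first, rose by 5.53 and FGF2 by 2.20 on the log2 scale. TGF-beta is known to raise elastin and LOX. Of its receptors, TGFBR1 rose by 0.80 and TGFBR2 fell by 0.67, and SMAD3, a mediator of its signal, fell by 0.47. A link of IL1B, FGF2 or any other gene of this list to the falls of ELN and LOX was not tested. The ligand gene TGFB1, singled out with its value known, differed by -0.37 on that scale (adjusted p = 0.0941 by limma). TGFB1 passed by edgeR (adjusted p = 0.044), by DESeq2 (0.0208), with the replicate letter as a block (0.00146 by limma), without 30 h replicate B (0.0452) and without both libraries of letter C (0.000284). WWTR1, the gene of the mechanosensitive co-activator TAZ, fell by 0.78. FOSL1, an AP-1 subunit, fell by 0.63 and KLF2, a factor of vessel walls, fell by 2.30. MRTFA, a co-activator of serum response factor that the table lists as MKL1, fell by 0.39. The other regulators called higher were CEBPB (0.76), SMAD7 (0.67), HIF1A (0.63), MRTFB, a paralogue of MRTFA (0.46), SKIL (0.35) and RELA (0.23). SKIL passed with overlapping groups, and SMAD2 and SMAD4 did not pass. These genes lie outside the rule for named genes and were named after their values were seen. YAP1, the partner of TAZ, fell by 0.16 with adjusted p = 0.0219 by limma. YAP1 did not pass when 30 h replicate A (adjusted p = 0.0642), 30 h replicate B (0.0589) or 72 h replicate B (0.0777) was dropped, or with quantile normalisation (-0.05, adjusted p = 0.446).

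**Figure D5:**
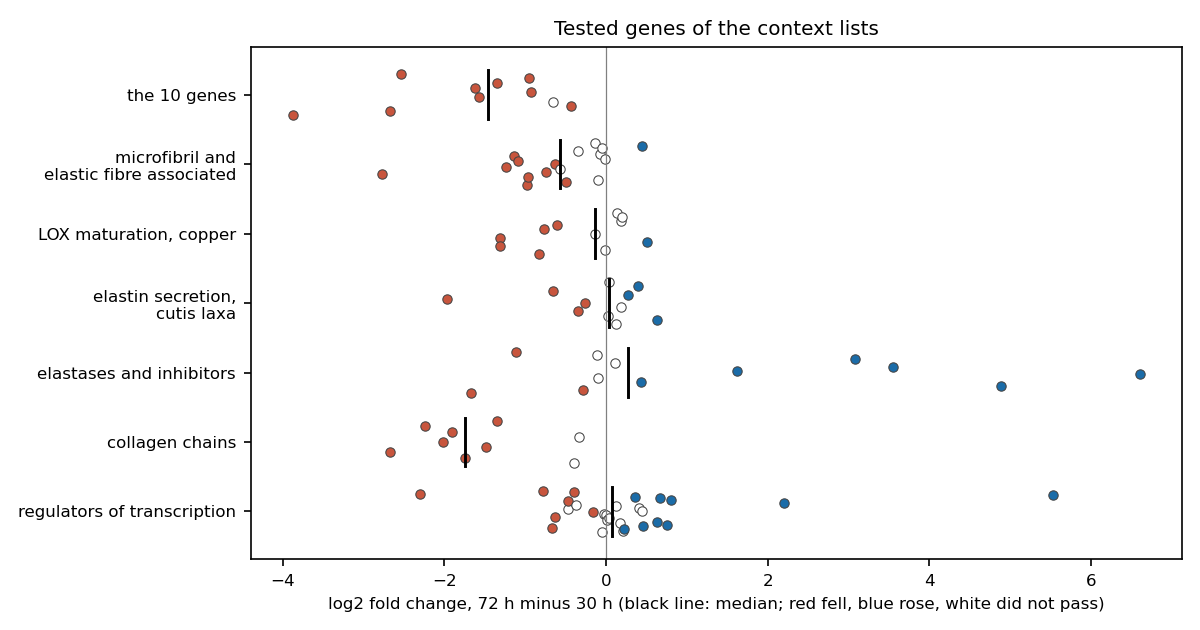
Log2 fold change from 30 h to 72 h (horizontal axis) of every tested gene of the 10 genes and of the 6 lists around them; red points fell, blue rose, white did not pass, and the black line is the median of the list. The median lies at -1.46 for the 10 genes (-1.35 without ELN, not drawn) and at -1.74 for the collagen chains.

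The genes whose pattern was most like that of LOX over the 6 libraries, by Pearson correlation of log2(normalised count + 1) among 10566 genes, were RGS10, LMO7 and CAV1, with r = 0.9997, 0.9996 and 0.9996. For ELN they were CDS2, KLF10 and SC5D, with r = 0.998, 0.997 and 0.996. Such values mostly follow the step between the 2 groups: 2254 genes had r over 0.9 with LOX and 1041 with ELN. Those of ELN share its high value in 30 h replicate C, where CDS2 had 1337 normalised counts against 1103 and 1112, and all points share the same 6 libraries.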

How the data were processed

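RNA-seq libraries of 6 IMR90 ER-RAS samples were grouped by the treatment label, 3 per time. The labels do not say whether replicates were separate cultures; p-values therefore measure only the spread among these 6 samples, and that spread may be technical. Per the submitters' processing notes the tools were Trimmomatic 0.35, STAR 2.5.1b and DESeq2 1.18.1, with build GRCh38. The read counter, annotation and use of strand were not given in the sources used here. As deposited by the authors, the table holds normalised counts (a signal per gene and library, counts divided by size factors), with their own log2 fold changes, test statistics (a score) and p-values. All values were whole multiples of 1 read within 0.01, so read counts were recovered. No sample column was left out.

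The filter kept genes that reached 10 normalised counts in 3 or more libraries (13315 of 58219, of which 31393 had no read). These were tested on log2(normalised count + 1), which understates the change of low genes, with limma 3.58.1 (trend and robust variance, R 4.3.3) and Benjamini-Hochberg adjustment. edgeR 4.0.16 and DESeq2 1.42.0 on the recovered reads, other filters, pseudocounts and scalings, a replicate block and leaving out libraries were alternatives. The fit was tested on simulated data. Chi-square per degree of freedom was 3.13 to 14.9 between replicates and 100.02 to 146 between groups. Deviations of same-letter libraries correlated at 0.00696 (A), 0.172 (B) and 0.185 (C). By this measure the B libraries were each other's closest across the times, as were the C libraries, but the A libraries were not. The letters were therefore not taken as pairs in the main fit, and the replicate block is given beside it.

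Exonic lengths came from GENCODE 29, whose coordinates equal the deposited ones for all 10 genes. Promoters came from RefSeq (GRCh38.p14, 8 of 10 genes matched). The 10 genes and the lists around them were chosen with earlier results of these data known. Context genes were named by rule from each list: up to 4 called genes with the largest absolute log2 fold change and a mean of at least 50 normalised counts in the higher group, and any called gene in the minority direction. Paralogue ratios and promoter motifs were added after the values were seen. Counting intervals are not given, and counts carry counting error beside the spread between samples.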

Additional observations from a re-analysis of the deposited data

How the results depend on the processing

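Across 17 alternatives the 10 genes gave 168 values, none of which changed direction. Of these, 167 kept their side of the threshold and 1 crossed it: LOXL4 passed without 72 h replicate B, and its log2 fold change ran from -0.98 to -0.37 with 1 library left out. ELN and LOXL4 were not tested with a minimum of 50 normalised counts. With 1 library left out, 9 to 10 of the 10 genes fell, as did 2689 to 3295 of all genes, and 2529 to 3174 rose. With the replicate block 9 of the 10 fell, and 3271 genes rose and 3452 fell. The copper list had 2 genes higher in place of 1 without both libraries of letter C and with no filter, and 1 to 2 with 1 library left out. The elastin secretion list had 1 to 2 higher in place of 3 with 1 library left out. Among the context genes named by rule, with ATP7A, COL4A1, COL4A2, CST3, HIF1A, TGFB1 and TIMP1, 691 values kept their side of the threshold. A further 29 lost the call and 10 gained one, the gains for ATP7A, COL4A2 and TGFB1. Other context genes named above were not part of this count. The replicate block ended the calls of MFAP4 (adjusted p = 0.0854 by limma) and PCOLCE (0.051), gave one for TGFB1 (0.00146) and changed no other call among the genes in this count. The cause was not tested. ELN rests on 3 to 7 reads per library at 72 h, which limits the precision of its fold.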
